A study of Mus musculus with 49 samples.

Results

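The change that untreated mouse embryonic stem cells went through in the first 7 days of neural differentiation was measured by comparing 7 libraries of day 7 controls with 7 libraries of undifferentiated cells at day 0. These 14 libraries were chosen from 49 by their labels alone, and no measured value entered the choice. The cells were ES-D3, an established line of mouse embryonic stem cells, grown for the neural version of the embryonic stem cell test, a toxicity assay in which cells first gather into embryoid bodies and then take on neural fates. Day 0 cells had not begun to differentiate. Day 7 controls had spent 3 days forming embryoid bodies and received neither of the study's antidepressants (fluoxetine at 2 µM and venlafaxine at 90 µM, given from day 3 in other groups). Day 13 controls, also 7 libraries, entered the fit to estimate the spread and to show where each gene went next. The labels state 8 samples per condition and give no solvent, culture batch or source of each sample, so p-values measure only the spread between these samples, which may be technical. All groups derive from 1 cell line, and each library was made from polyA RNA of a whole culture, in which fewer cells of a type and less RNA per cell cannot be told apart.

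Mouse embryonic stem cells renew themselves through a network of transcription factors around Pou5f1, Sox2 and Nanog, held in place by LIF acting through STAT3. When these signals end, FGF signalling lets the cells leave this naive state, and without inducers of mesoderm or endoderm many of them become neuroepithelium. Neuroepithelial cells then express proneural factors of the basic helix-loop-helix family, Notch signalling keeps part of them dividing, and retinoic acid gives them a posterior position through the Hox genes.

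Library totals ran from 14556000 to 24402900 counts on day 0 and from 14059800 to 25752200 on day 7. The mitochondrial share of counts was 1.91 ± 0.0684% on day 0 and 1.4 ± 0.0726% on day 7 (SD, n = 7 each; two-sided exact permutation p = 0.000583, the smallest that 7 against 7 allows, adjusted p = 0.00117 over 4 library measures). The 100 most abundant genes of a library took 16.4 ± 0.16% on day 0 and 13.8 ± 0.257% on day 7 (exact permutation p = 0.000583, adjusted p = 0.00117). At a common depth of 14059811 counts, 21245 to 21402 genes had a count on day 0 and 21378 to 21831 on day 7 (exact permutation p = 0.00175, adjusted p = 0.00233). Total counts differed by less than the spread between libraries (exact permutation p = 0.413). The first principal component of the 14 libraries held 94.3% of the variance and separated the days, and the second held 0.879%.

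Of 16969 genes with enough counts to test, 15060 (88.8%) passed an adjusted p under 0.05 in edgeR's quasi-likelihood test, of which 7695 (45.3%) were higher and 7365 (43.4%) lower on day 7. Libraries of a day differed little, with a median SD per gene of 0.102 on day 0 and 0.115 on day 7 on the log2 scale, and 47.3% of the called genes had changed by less than 2-fold. A call is therefore the rule in this comparison, and a count of called members has to be read against these shares. The near-even split depends on the scaling. With libraries scaled by total counts alone, 9082 genes were called higher and 5910 lower. Counts of a gene list are over its members with enough counts to test. At 4-fold or more, 2618 called genes (15.4% of those tested) were higher and 1499 (8.83%) lower. Under total-count scaling these were 3006 and 1298. The 2 directions differed most at the far end, with 394 genes at least 64-fold higher by the fit and 146 at least 64-fold lower. Of the called genes, 151 had no count in any day 0 library and 12 had none in any day 7 library. A fitted fold against no count is not a measured size. Genes at least 4-fold lower held 7.74% of the day 0 counts and 1.21% of the day 7 counts, while genes at least 4-fold higher went from 1.09% to 11.3%. In all, 6572 genes (38.7%) had every day 7 library above every day 0 library and 6382 (37.6%) had every day 7 library below.

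**Figure D1:**
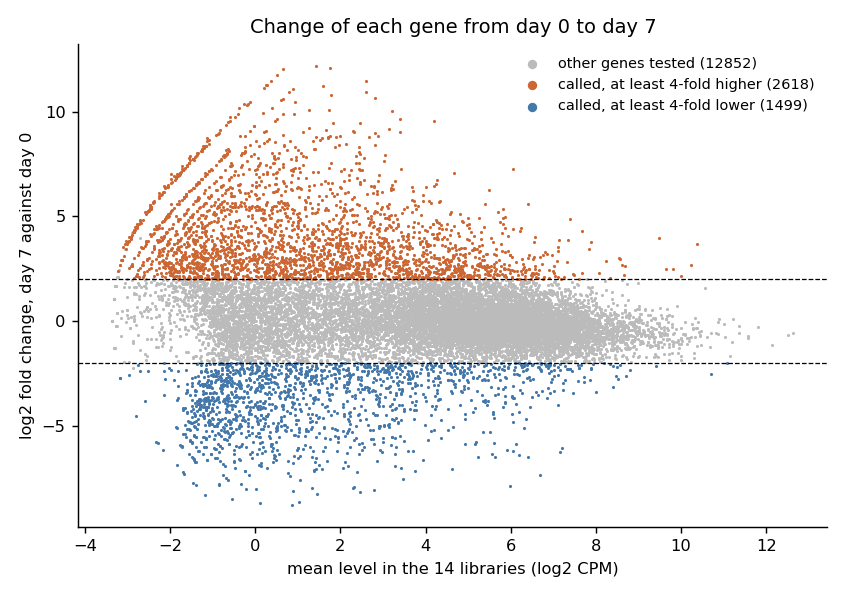
Log2 fold change of each of the 16969 genes tested (day 7 against day 0, fitted) against its mean level in the 14 libraries (log2 CPM). Each point is a gene, coloured where it was called and changed at least 4-fold: 2618 genes lie above the upper dashed line and 1499 below the lower one.

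Beside pluripotency genes, the 15 largest falls included genes best known from other tissues. Levels are in CPM, the count relative to a library's TMM-scaled total, and given as the range over the 7 libraries of a day. After a log2 fold change, here and below, ± gives the standard error of the fit. Chrna9, a nicotinic acetylcholine receptor subunit known from the inner ear, counted 21 to 24.8 CPM on day 0 (median 23.5) and 0 to 0.118 CPM on day 7 (median 0.0515), and no library of one day reached those of the other (log2 fold change -8.78 ± 0.258, edgeR adjusted p = 1.51e-20). Laptm5, a lysosomal membrane protein of blood cells, counted 95.2 to 111 CPM on day 0 (median 101) and 0.185 to 0.663 CPM on day 7 (median 0.332). Mymx, which is needed for the fusion of muscle precursors, counted 80.2 to 87.9 CPM on day 0 (median 84.7) and 0.118 to 0.444 CPM on day 7 (median 0.265). All 7 day 7 libraries of these genes lay far below all of day 0, but libraries that did not overlap were a condition of this ranking. The keratin genes Krt42 and Krt17 fell by 8.11 and 7.40 on the log2 scale, and the enzyme genes Urah, Hsd17b14 and Cbr3 by 7.97, 7.18 and 7.23. Khdc3, an oocyte gene, and Spata31d1b, known from testis, fell by 7.59 and 8.02. Tdgf1, the Nodal co-receptor Cripto, and Pou5f1 stood among the 15 largest falls with ranges of 941 to 1051 CPM on day 0 (median 1005) and 1.79 to 6.1 CPM on day 7 (median 4.16) for Tdgf1 and 1295 to 1399 CPM on day 0 (median 1361) and 4.18 to 12.2 CPM on day 7 (median 7.65) for Pou5f1.

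Naive pluripotency genes fell without exception, 23 of the 23 listed and 22 of them at least 4-fold (median log2 fold change -5.53, against 0.03 over all genes tested). Fgf4, the growth factor with which stem cells prime their own exit, counted 278 to 302 CPM on day 0 (median 290.0) and 1.06 to 2.7 CPM on day 7 (median 2.17) (log2 fold change -7.09 ± 0.226, edgeR adjusted p = 2.09e-17). Tfcp2l1, a transcription factor of the naive state, counted 434 to 524 CPM on day 0 (median 469) and 9.14 to 16.7 CPM on day 7 (median 13.3). Klf2, Klf4 and Klf5, which overlap in function, fell unequally: Klf2 by 5.27, Klf5 by 3.70 and Klf4 by 2.50 on the log2 scale. Jam2, a junctional adhesion molecule, was the one member below 4-fold and fell by 1.18. The 17 general pluripotency genes also all fell, 13 of them at least 4-fold, and the 4 others were Sox2, Sall4, Lin28a and Mycn. Those 4 kept 193, 80.4, 75.9 and 106 CPM on day 7, and Sox2 is also the SoxB factor of neural progenitors. Of 18 genes of the epiblast transition, the step between naive cells and neuroectoderm, 11 fell (9 at least 4-fold) and 5 rose (4 at least 4-fold, the N-cadherin gene Cdh2 among them). Otx2 fell from 20.7 ± 1.76 to 0.843 ± 0.394 CPM (mean ± SD for levels, n = 7 per day here and below) and Dnmt3b from 403 ± 14.3 to 36.7 ± 2.03, while Fgf5 did not pass the test at 0.963 ± 0.402 to 0.479 ± 0.243 (called lower with DESeq2 and with the 14 libraries alone). In the germ line and 2-cell list 12 of 15 tested genes fell, including the meiotic synaptonemal gene Sycp1 from 9.24 ± 0.614 to 0.067 ± 0.0623 CPM and the RNA helicase gene Ddx4 from 32.6 ± 1.22 to 1.44 ± 0.185. The homeobox genes Rhox6 and Rhox9 of the X-linked Rhox cluster went the other way, from 6.47 ± 0.66 to 29 ± 9 and from 4.9 ± 0.54 to 26.1 ± 8.1 CPM.

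**Figure D2:**
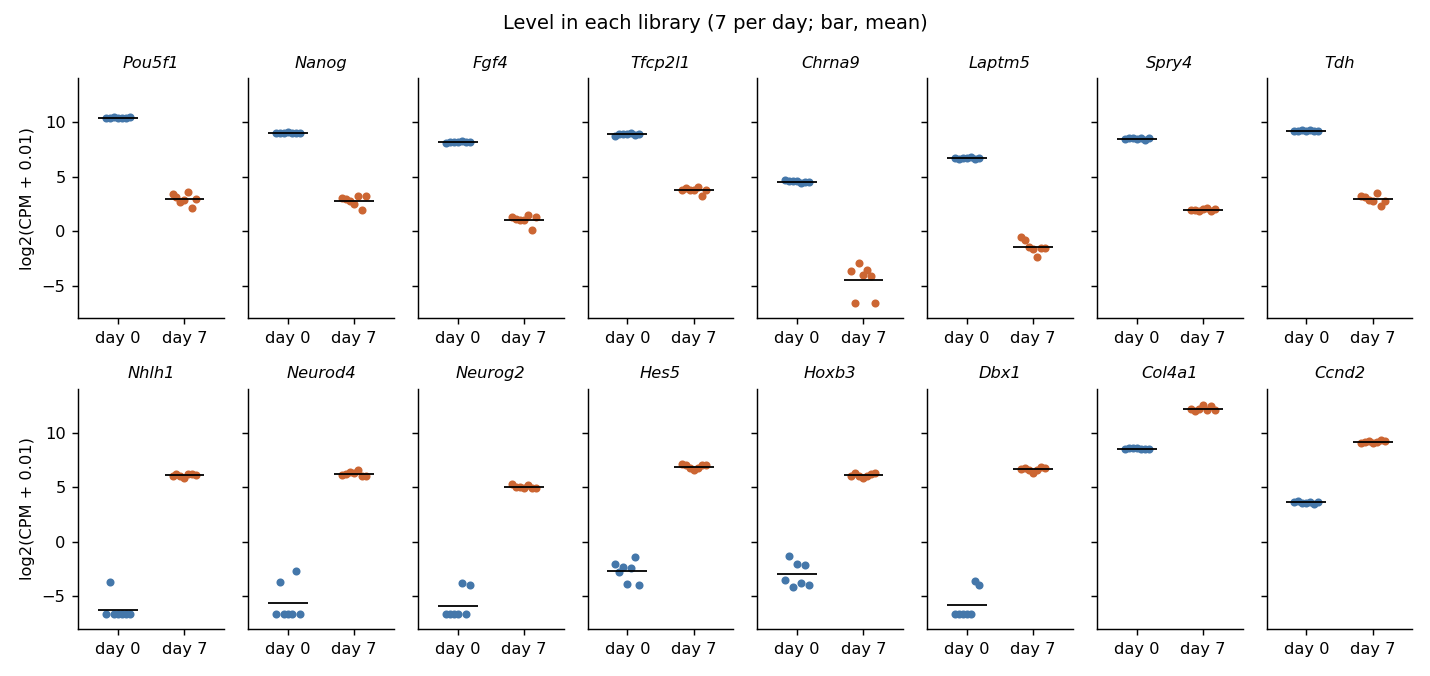
Level of 16 genes in each of the 14 libraries (log2 of CPM plus 0.01), day 0 and day 7 side by side, with the mean of each day as a bar. The 8 genes of the upper row fell and the 8 of the lower row rose, and in none of them did the libraries of the 2 days overlap. For genes named by the size of their change this was a condition.

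Neural genes stood at the other end. The gene with the highest fitted fold change was Nhlh1, a basic helix-loop-helix factor of young neurons, with 1 count in all day 0 libraries together and 57.5 to 75.1 CPM (median 70.4) on day 7; the ratio of the summed counts was 7994, with a 95% counting interval of 1434 to 315770. Neurod4, which acts beside the Neurogenins, counted 0 to 0.147 CPM on day 0 (median 0) and 65.6 to 94.2 CPM on day 7 (median 75.5). Neurog2, the proneural factor that commits progenitors to neurons, counted 0 to 0.0604 CPM on day 0 (median 0) and 30.3 to 39.7 CPM on day 7 (median 31.6). Each stood near 0 in all day 0 libraries and within a narrow range on day 7. Of 37 neurogenesis genes 36 rose, 32 at least 4-fold, with a median of 5.73. The exception was Stmn2, a regulator of microtubules in growing axons, which was already at 178 ± 3.31 CPM on day 0 and fell by 0.35 to 139.9 ± 11.3, a fall not called under total-count scaling. Zinc finger genes of neuronal commitment rose as well, Myt1 from 0.0658 ± 0.0522 to 71.5 ± 9.87 and Scrt2 from 0.1 ± 0.0857 to 71.6 ± 14.8 CPM. Nhlh2, the relative of Nhlh1, went from 0.095 ± 0.0529 to 199 ± 28.3 CPM, and Fat4, a large atypical cadherin, from 0.148 ± 0.105 to 229 ± 45.7. The tubulin gene Tuba1a, among the 8 largest gains in CPM, rose from 136 ± 6.54 to 1068 ± 79.7. Dcc, the netrin receptor of growing axons, had 1 count in all day 0 libraries and 21.5 to 36.2 CPM (median 29) on day 7. Chrna3, a nicotinic receptor subunit of autonomic and some central neurons, also had 1 count on day 0 and 21.2 to 24.9 CPM (median 23.1) on day 7. The gene of the neuropeptide CART, Cartpt, had no count in any day 0 library and 12.2 to 18.6 CPM (median 15.1) on day 7, which is at least 596-fold higher against a floor of 3 counts over the day 0 group.

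Progenitor genes rose in 28 of 29 cases, the exception being Sox2. The median of the 29 was 4.56 on the log2 scale. Hes5, the Notch target that holds progenitors in division, counted 0.0546 to 0.367 CPM on day 0 (median 0.181) and 96.2 to 137 CPM on day 7 (median 128) (log2 fold change 9.45 ± 0.15, edgeR adjusted p = 3.8e-25). Pax3, a factor of the dorsal neural tube, went from 0.119 ± 0.099 to 37.5 ± 13.1 CPM, and Nes, which encodes the intermediate filament nestin, from 42.3 ± 2.85 to 619.8 ± 25.1. Slc1a3 and Lhx2 rose least, by 0.38 and 1.07 on the log2 scale. Slc1a3, a glutamate transporter of radial glia, reached 345 ± 36 CPM on day 13.

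Genes of mature neuronal function were divided. Of 25 tested genes in the mature neuron list 17 rose and 6 fell, with a median of 1.98. Snap25, of the vesicle fusion machinery, rose from 0.263 ± 0.122 to 14.9 ± 2.34 CPM, and the AMPA receptor gene Gria2 from 0.135 ± 0.242 to 20.4 ± 3.3. The synapsin gene Syn1 did not pass the test at 9.61 ± 1.09 to 8.92 ± 0.864, nor did the NMDA receptor gene Grin2b at 0.955 ± 0.455 to 0.901 ± 0.287. Camk2b, a calcium-dependent kinase of synapses, fell from 18.6 ± 1.12 to 4.2 ± 0.612. On day 13 these levels were 134 ± 24.4 for Snap25, 385 ± 87.8 for Gria2, 111 ± 8.96 for Syn1, 105 ± 15.5 for Grin2b and 125 ± 12.5 for Camk2b. Astrocyte markers were low on day 7, with a summed level of 1.98 to 3.25 CPM over 4 genes against 8.99 to 10.8 on day 0. Gfap and Aldh1l1 fell, from 2.23 ± 0.607 to 0.0423 ± 0.0398 and from 7.66 ± 0.738 to 1.67 ± 0.386 CPM, 1 of the other 2 markers rose from no count on day 0, and most of the summed fall was that of Aldh1l1. Over the whole glia list 7 of 15 tested genes rose and 6 fell, with a median of 0.93.

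Most tested genes of hindbrain and spinal cord position rose, and most forebrain genes had too few counts to test. Of 39 Hox genes 27 had enough counts, and 22 rose, 3 fell and 2 were not called, with a median of 5.23. Hoxb3 counted 0.0464 to 0.397 CPM on day 0 (median 0.0767) and 58 to 79.8 CPM on day 7 (median 66.7) (log2 fold change 8.83 ± 0.283, edgeR adjusted p = 8.84e-18). Hoxb2 counted 0 to 0.229 CPM on day 0 (median 0.0767) and 39.2 to 49.7 CPM on day 7 (median 44.2). Hoxd3 had no count on day 0 and 15.7 to 24.9 CPM (median 19.7) on day 7, at least 792-fold higher against the floor. The genes that fell were Hoxb13, Hoxc13 and Hoxd13, the last members of their clusters, at day 7 means of 0.155, 0.758 and 0.202 CPM. Reads of Hoxc4, Hoxc5 and Hoxc6 may be shared, since these genes overlap. Irx3 and Pax2, expressed in the neural tube behind the forebrain, rose from 0.356 ± 0.165 to 69.7 ± 11.3 and from 0.0997 ± 0.0525 to 25.4 ± 4.82 CPM. Gbx2, known from both stem cells and the anterior hindbrain, fell from 163 ± 4.03 to 11 ± 1.36. Of 18 forebrain and eye genes 11 had too few counts to test, among them Six3 with 18 counts over all day 0 libraries and 15 over all of day 7, and Nkx2-1 with 3 and 3. Of the 7 forebrain genes tested 4 rose, Lhx2 among them, and 2 fell, Otx2 among them, with a median of 1.07.

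Along the dorsal to ventral axis, genes of several levels appeared together. Dbx1, which marks progenitors in the middle of the neural tube, counted 0 to 0.0734 CPM on day 0 (median 0) and 77.7 to 118 CPM on day 7 (median 103). Foxb1, a forkhead gene of the neural tube and diencephalon, had 1 count on day 0 and 29.4 to 36.2 CPM (median 31.1) on day 7. Nkx6-1 of the ventral tube went from 0.125 ± 0.15 to 58.7 ± 16.3 CPM and Shh, the ventral signal of the floor plate, from 0.0529 ± 0.0458 to 15.3 ± 2.46. Tfap2b, a factor of dorsal interneurons and neural crest, had no count on day 0 and 15.1 to 32.9 CPM (median 24.9) on day 7, at least 1014-fold higher. In the neural crest list 9 of 15 genes rose, 3 fell and 3 were not called, Snai2 and Ngfr among them. Sox10, a defining crest gene, stood at 1.23 ± 0.637 CPM on day 7.

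The largest gains in counts, as opposed to folds, went to the basement membrane. Col4a1, a type IV collagen chain, gained more CPM than any other gene and counted 365 to 388 CPM on day 0 (median 376) and 4185 to 5866 CPM on day 7 (median 4582) (log2 fold change 3.67 ± 0.0728, edgeR adjusted p = 5.55e-23). Lama1, a laminin chain, counted 462 to 485 CPM on day 0 (median 475) and 2609 to 3864 CPM on day 7 (median 2904). Col4a2, Lamb1, Lamc1 and Sparc, partners of these in the same matrix, rose from 182 ± 6.72 to 2862 ± 388, 381 ± 11.4 to 2113 ± 311, 877 ± 37 to 2639 ± 404 and 340.0 ± 9.14 to 1876 ± 223 CPM. Of 40 tested collagen genes 25 rose (22 at least 4-fold) and 9 fell, and of 11 laminin genes 6 rose and 2 fell, Lama5 from 432 ± 26.9 to 168 ± 25.3 and Lama3 from 2.58 ± 0.409 to 0.828 ± 0.271. The matrix genes rose together with transcription factors of extraembryonic endoderm, the lineage that lines the yolk sac: Sox17 from 11.2 ± 1.44 to 63.2 ± 4.77, Gata4 from 42.1 ± 3.55 to 144 ± 16.9 and Foxa2, shared with the floor plate, from 3.35 ± 0.531 to 40.5 ± 6.52 CPM. Afp, a serum protein of visceral endoderm, counted 0 to 0.153 CPM on day 0 (median 0) and 10.3 to 24.3 CPM on day 7 (median 18). In all 20 of 24 tested genes of this list rose, 2 fell (Amn and Cubn, the receptor pair of visceral endoderm, by 2.62 and 0.58 on the log2 scale, that of Cubn lost without day 7 replicate 7 or 8, with DESeq2, without the filter and under total-count scaling) and 2 were not called (Apob and Apom). The 5 parietal endoderm markers all rose, 3 of them at least 4-fold. They summed to 522 to 549 CPM on day 0 and 2753 to 4053 on day 7, and most of both sums was Lama1. Sox7 counted 14.6 to 18.6 CPM on day 0 and 19 to 26 on day 7, and Gata6 28 to 36.6 and 50.8 to 72.7. The part of these markers in the rise of the matrix genes was not tested, since the list holds some of the same genes. Igfbp1, a secreted binder of insulin-like growth factors, had no count on day 0 and 11.1 to 20.9 CPM (median 14.1) on day 7. Nepn, which encodes the proteoglycan nephrocan, had none on day 0 and 13.9 to 23 CPM (median 15.6) on day 7.

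Genes of mesoderm, heart and vessels were divided. Of 19 tested genes of this list 10 rose, 8 of them at least 4-fold, and 8 fell, with a median of 0.59. Summed over 6 primitive streak and mesoderm markers, the level was 10.1 to 13.2 CPM on day 0 and 5.61 to 8.43 on day 7. Summed over 5 heart muscle markers it was 9.69 to 10.9 and 4.53 to 7.58, and of the 3 heart markers tested 1 rose at least 4-fold and 2 fell. Mixl1, a streak gene, fell to 1 count over all day 7 libraries, and Eomes fell from 4.82 ± 0.406 to 0.809 ± 0.177 CPM. Cdh5, the cadherin of vessel walls, rose from 3.08 ± 0.749 to 30.7 ± 8.06, whereas Pecam1, known from vessels and from stem cells, fell from 65.7 ± 1.9 to 5.39 ± 1.54.

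Tpbpa and the prolactin and cathepsin families of the placenta were near 0 on day 0 and differed widely between the day 7 libraries. The families were singled out after their values were seen. Tpbpa, a marker of the spongiotrophoblast, had 1 count on day 0 and 3.03 to 31.6 CPM (median 11) on day 7. The summed level of the 11 tested prolactin family genes was 64.1, 39.9, 25.2, 27.1, 52, 8.27 and 27.7 CPM in day 7 replicates 1, 2, 4, 5, 6, 7 and 8 and at most 0.397 in any day 0 library. For the 4 tested placental cathepsin genes the same sums were 23.5, 15.8, 7.88, 12.7, 21.2, 5.88 and 13, with at most 0.109 on day 0. Replicate 7 was lowest and replicates 1 and 6 highest in both families. Of 25 prolactin family genes 11 had enough counts to test, and 9 of these rose and 2 were not called. Of 7 placental cathepsin genes 4 were tested, and all 4 rose. Genes this near 0 on day 0 pass the count filter only through a later group, so these rises were largely set beforehand. Psg29, a pregnancy-specific glycoprotein, had no count on day 0 and 1.7 to 13.5 CPM (median 5.94) on day 7, and Prl7d1 and Prl2b1 reached 1.65 to 13.6 CPM (median 5.87) and 2.94 to 22.1 CPM (median 10). Of the 4 tested Psg genes 3 rose and 1 fell, each at least 4-fold. All 7 genes of the Serpinb9 group rose, but these already summed to 8.67 to 10.3 CPM on day 0. Members of these families resemble each other in sequence, so the split of reads between them is uncertain. Of 12 trophoblast genes 8 rose, 3 fell and Hand1 was not called. Elf5 rose to 1.09 ± 0.254 CPM, and Krt8 and Krt18, keratins of trophoblast and other simple epithelia, rose from 73.1 ± 2.05 to 296 ± 50 and from 66.4 ± 2.76 to 288 ± 50.1 CPM.

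**Figure D3:**
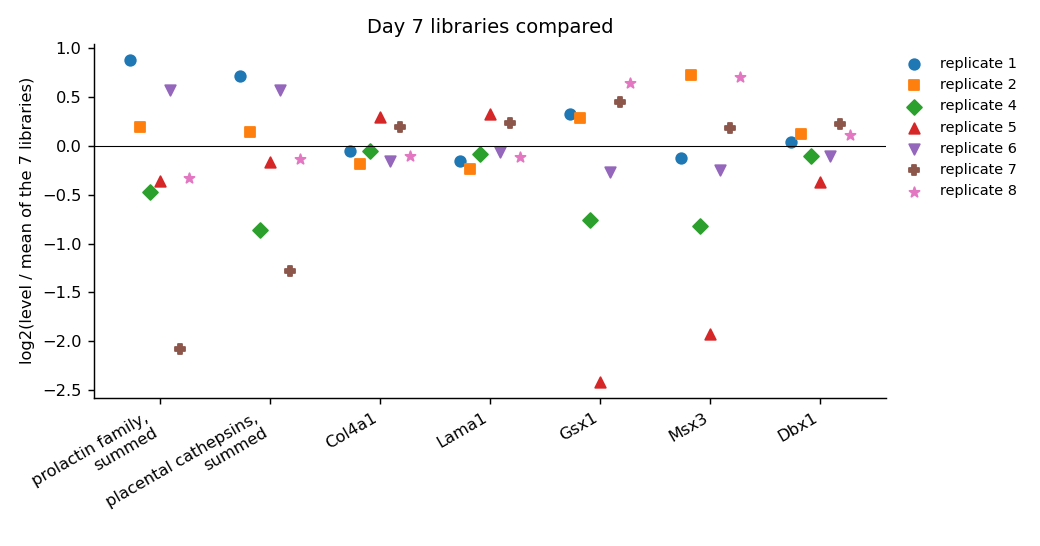
Level in each day 7 library divided by the mean of the 7, on a log2 scale, for the summed placental families (prolactin, cathepsin), the basement membrane genes Col4a1 and Lama1, and 3 regional genes (Gsx1, Msx3 and Dbx1). Replicate 7 is lowest in the placental sums, and replicate 5 is highest in Col4a1 and Lama1 and lowest in Gsx1 and Msx3.

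Regional genes also varied between the day 7 libraries. Among the changed genes with the largest SD on day 7 were Tpbpa, Gsx1, Psg29, Prl7d1, Tnfrsf9, Msx3 and Prl2b1. Gsx1 and Msx3, homeobox genes of dorsal progenitors, counted 0.979 to 8.15 CPM (median 6.33) and 1.55 to 9.66 CPM (median 5.37), and replicate 5 was lowest in both. Col4a1 and Lama1 were highest in replicate 5. Tnfrsf9, a receptor of the tumour necrosis factor family, followed the placental genes with 1.7 to 11.8 CPM (median 5.15). Nhlh1 differed far less, with an SD of 0.134 on the log2 scale against 1.04 for Tpbpa.

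Signalling genes were divided between the directions. In FGF signalling the ligands Fgf4 and Fgf17 and the feedback and target genes Spry4, Etv4, Etv5 and Dusp6 fell, while the receptor Fgfr3 rose. Spry4, an inhibitor made in response to FGF, counted 334 to 379 CPM on day 0 (median 364) and 3.49 to 4.32 CPM on day 7 (median 3.91). Fgfr3 counted 5.56 to 7.15 CPM on day 0 (median 6.52) and 149.6 to 172 CPM on day 7 (median 163). Of 19 tested members 8 rose and 9 fell. Fgf4 and Fgf17 do not stand for the Fgf genes as a family, of which 8 of 16 tested rose, 4 fell and 4 were not called. Among 13 genes of LIF and STAT3 signalling 9 fell, including the STAT3 target Socs3 from 236 ± 8.76 to 23.8 ± 1.42 CPM and the cofactor Bcl3 from 44.9 ± 1.88 to 1.39 ± 0.182. The LIF receptor gene Lifr fell only from 131 ± 5.77 to 88.6 ± 12.2.

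Retinoic acid genes rose in 14 of 20 cases and fell in 4. Crabp2, which carries retinoic acid to its nuclear receptors, counted 4.64 to 6.15 CPM on day 0 (median 4.92) and 366 to 433 CPM on day 7 (median 400.1). Cyp26a1, the enzyme that breaks retinoic acid down and is itself induced by it, counted 0.441 to 1.92 CPM on day 0 (median 1.37) and 29.1 to 37.3 CPM on day 7 (median 30.1) and was back at 1.04 ± 0.277 on day 13. The receptors changed in opposite directions. Rarg fell from 254 ± 9.89 to 6.51 ± 0.658 CPM, Rarb rose from 0.238 ± 0.11 to 18.4 ± 4.07, and Rara did not pass the test at 56 ± 2.33 to 60 ± 3.42 (called higher in 4 of 10 other settings, by 0.11 to 0.36).

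Notch genes rose in 16 of 20 cases. Nrarp, a feedback inhibitor of Notch, rose from 5.51 ± 0.593 to 152 ± 11 and the ligand gene Dll4 from 0.0701 ± 0.0612 to 5.57 ± 1.47 CPM. Hes1 was called lower by 0.21 on the log2 scale, but scaling by total counts alone put it at 0.0499 and not called, and the call was lost when any of day 0 replicates 3, 5 or 8 or day 7 replicates 1, 2 or 8 was left out (-0.20 to -0.18). Of 35 Wnt genes 25 rose and 7 fell. Wnt5a rose from 1.11 ± 0.162 to 40.6 ± 6.17, the receptor Fzd3 from 16.3 ± 2.18 to 354 ± 34.2 and the secreted antagonist Sfrp2 from 6.86 ± 0.619 to 151 ± 5.31, while Notum, an extracellular Wnt inhibitor, fell from 31.1 ± 1.17 to 1.81 ± 0.563. BMP and TGF-beta genes were divided, 14 higher and 13 lower. The Nodal branch fell, with Nodal from 29.7 ± 1.26 to 0.399 ± 0.155 and its inhibitor Lefty1 from 39 ± 2.87 to 0.669 ± 0.205. The activin binder Fst rose from 4.14 ± 0.353 to 101 ± 10.7 and the receptor Bmpr1b from 1 ± 0.181 to 18.8 ± 4.53.

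**Figure D4:**
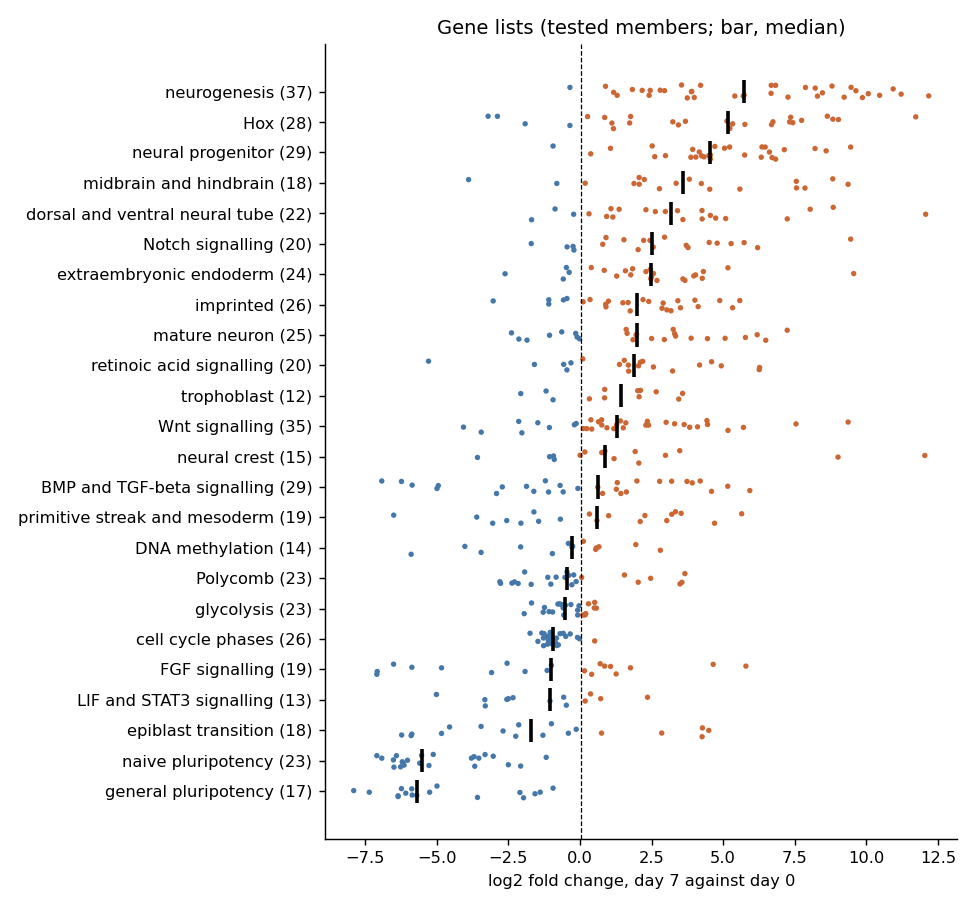
Log2 fold change of every tested member (points) and the median (bar) of 24 of the gene lists (the Hox list also holds Cdx genes), ordered by median, with the median of all 16969 genes tested as a dashed line. Pluripotency lists lie lowest and the neurogenesis and Hox lists highest, and the signalling lists spread to both sides.

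Within many of the small families looked at, 1 member fell while a related member rose. These families were chosen with earlier results of these data known. Of all genes tested 45.3% were called higher and 43.4% lower, and such pairs have to be read against these shares. The E-cadherin gene Cdh1 fell from 532 ± 22.6 to 206 ± 31.5 CPM, and the N-cadherin gene Cdh2 rose from 8.75 ± 0.612 to 198 ± 14.9. Per kilobase of exon the day 7 levels of Cdh1 and Cdh2 were 45 and 24.5 CPM. Among POU factors, beside the fall of Pou5f1, the neural factor gene Pou3f2 counted 0.0767 to 0.808 CPM on day 0 (median 0.121) and 231 to 332 CPM on day 7 (median 267). Pou3f3 counted 0.0734 to 0.596 CPM on day 0 (median 0.325) and 163 to 225 CPM on day 7 (median 205). Sox2 was the SoxB gene with the highest level per kilobase on both days, at 179.8 and then 93.7 CPM, while Sox1 went from 0.505 to 11.8 and Sox3 from 2.01 to 36.2. Zic1, a factor of the dorsal neural tube, rose from 0.206 ± 0.118 to 28.6 ± 8.11 CPM. The orphan receptor gene Esrrg rose from 0.13 ± 0.0696 to 12.4 ± 1.26, against the fall of Esrrb by 6.51 on the log2 scale.

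Regulators of chromatin also moved in both directions. Of the enzymes that oxidise methylated cytosine, Tet1 counted 512 to 638 CPM on day 0 (median 553) and 30.3 to 39.9 CPM on day 7 (median 34.5), and Tet3 counted 22.5 to 28.7 CPM on day 0 (median 26.7) and 168 to 197 CPM on day 7 (median 190.2). Dnmt3l, the cofactor of new DNA methylation, fell from 545 ± 11.9 to 9.14 ± 1.74 CPM, whereas the maintenance enzyme Dnmt1 fell by 0.26 on the log2 scale, a change that total-count scaling brought to 0.0052. Of 23 Polycomb genes 16 fell, including Jarid2 from 967 ± 24.8 to 141 ± 11.8 and Eed from 399 ± 13.8 to 76.8 ± 4.08, and 6 rose. The chromobox gene Cbx8 rose from 0.887 ± 0.164 to 11.3 ± 0.651, and Cbx7, the main chromobox gene of stem cells, fell from 318 ± 8.31 to 83.3 ± 6.47. Ezh2, the methyltransferase, did not pass the test at 213 ± 5.8 to 223 ± 8.72 (called higher in 6 of 10 other settings, by 0.067 to 0.32). In the BAF remodelling complex the ATPase gene Smarca2 rose from 3.84 ± 0.894 to 42.7 ± 4.07 and the neuronal subunit gene Actl6b from 0.144 ± 0.161 to 6 ± 1, and its stem cell counterpart Actl6a fell by 0.83.

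RNA-binding regulators rose in 26 of 34 cases. Ptbp1, which represses neural exons, fell from 1001 ± 21 to 502 ± 22.9 CPM and its neural relative Ptbp2 rose from 35.9 ± 1.84 to 352 ± 19.4. Srrm4, which promotes neural microexons, counted 0.367 to 0.928 CPM on day 0 (median 0.745) and 54 to 72.2 CPM on day 7 (median 63.8). Rbfox1 rose from 0.0505 ± 0.0556 to 13.4 ± 2.27 and Celf3 from 0.335 ± 0.202 to 78.5 ± 7.84. Lin28a fell by 1.57 and Lin28b rose by 0.28 on the log2 scale.

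The cell cycle genes fell as a group but by small amounts. Of 26 genes of the S and M phases 23 fell, and none by 4-fold, with a median of -0.96 on the log2 scale. The replication helicase gene Mcm3 went from 669 ± 10.8 to 266 ± 6.97 and Cdc20 from 390.0 ± 12 to 116 ± 3.53 CPM, while Mki67, the proliferation antigen, rose by 0.51 on the log2 scale, and E2f1 and Aurkb were not called (under total-count scaling these were called higher, by 0.24 and 0.17). Of 21 regulators of the cycle 14 rose (5 at least 4-fold) and 6 fell (2 at least 4-fold), with a median of 0.70. Cyclin D2, encoded by Ccnd2, counted 11.1 to 13.7 CPM on day 0 (median 12.1) and 538 to 645 CPM on day 7 (median 569.7) (log2 fold change 5.57 ± 0.114, edgeR adjusted p = 8.76e-22). Ccne1, for cyclin E1, counted 457 to 479.7 CPM on day 0 (median 465) and 45.6 to 53 CPM on day 7 (median 46.9). Ccnd3 and Myc fell from 516 ± 9.58 to 151 ± 7.41 and from 117 ± 5.46 to 11.6 ± 1.77, and Mycl rose from 10.9 ± 0.753 to 131 ± 3.89.

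Genes of 4 large complexes fell. All called members were lower in the ribosomal proteins (81 of 82 tested), complex I of the respiratory chain (44 of 45), ATP synthase (16 of 17) and the chaperonin (8 of 8), with medians of -0.75, -0.53, -0.78 and -1.12. In the proteasome 44 of 47 fell and 2 rose. At the median these falls are small, although 4 ribosomal protein genes and 2 proteasome genes fell at least 4-fold, and scaling by total counts alone shifted the median gene by 0.26 on the log2 scale. Under that scaling the medians were -0.49, -0.27, -0.52 and -0.86, with 79 of 82 ribosomal protein genes and 34 of 45 complex I genes lower and 1 and 3 higher. The largest losses in CPM were those of abundant genes of protein folding and the nucleolus, with Hsp90ab1 from 6699 ± 266 to 2989 ± 61.8, Hsp90aa1 from 4020.3 ± 119 to 698 ± 35.4, Ncl from 4382 ± 55 to 1085 ± 20.9 and Npm1 from 4072 ± 184 to 1293 ± 41.2 CPM. Next came the elongation factor gene Eef1a1, the ribosomal protein gene Rpl4, the corepressor gene Trim28 and the ATP synthase gene Atp5b, which fell by 0.56, 1.02, 1.79 and 1.25 on the log2 scale. In lipid synthesis the desaturase gene Scd2 rose from 489 ± 37.4 to 2166 ± 168 CPM. Glycolysis genes fell in 13 of 23 cases and rose in 7, with the hexokinase gene Hk2 from 536 ± 23.8 to 139 ± 15.5. Tdh, the mitochondrial threonine dehydrogenase on which mouse stem cells depend, counted 561 to 600.1 CPM on day 0 (median 579.9) and 4.87 to 11.3 CPM on day 7 (median 7.23). With Mthfd1 from 518 ± 14.6 to 109 ± 4.18 and the amino acid transporter gene Slc7a3 from 229 ± 7.46 to 15.3 ± 2.83, 16 of 23 amino acid and one-carbon genes fell and 4 rose.

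Imprinted genes rose in 20 of 26 cases and fell in 5, with a median of 1.98. Nnat, a small membrane protein of the developing brain, counted 29.9 to 32.1 CPM on day 0 (median 30.9) and 867 to 963 CPM on day 7 (median 916), and Plagl1, a zinc finger regulator of growth, counted 22 to 26 CPM on day 0 (median 23.3) and 344 to 415 CPM on day 7 (median 380.2). Phlda2, a restrainer of placental growth, fell from 77.1 ± 2.7 to 9.39 ± 3.39. Neighbours did not all move alike: in the Dlk1 and Meg3 domain Dlk1 and Meg3 rose by 0.91 and 0.35 on the log2 scale while Rian and Mirg fell by 0.58 and 1.09.

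Some changed genes lay in runs along the chromosomes. Defining a run as 5 or more tested genes in a row that were all called and at least 4-fold changed in 1 direction, 25 runs with 173 genes were higher and 9 runs with 85 genes lower. The longest upward run was the alpha and beta protocadherin cluster on chromosome 18, with 34 genes, whose summed level went from 2.43 to 161 CPM. Protocadherins of this cluster give single neurons their surface identity. Over the whole family 60 of 65 tested genes rose, and the 4 that fell were Pcdh1 (not called under total-count scaling) and 3 genes of the gamma cluster, Pcdhga1, Pcdhga12 and Pcdhgb8. Variable exons of these genes are spliced to shared constant exons and read assignment between them is uncertain. The Hoxb cluster formed a run of 10 genes at chr11:96281905-96368256 (GRCm38), Hoxb3os and Hoxb5os among them. A run of 8 at chr6:52162417-52215076 held Hoxa2, Hoxa3, Hoxa4 and Hoxa5. Its other members were Hoxaas2, Hoxaas3, Gm15050 and 5730596B20Rik, and reads of overlapping genes cannot be told apart. The longest downward run, also 34 genes, lay at chr4:145213463-147809788 and held a cluster of KRAB zinc finger genes, including Rex2, with 2 genes of tumour necrosis factor receptors at its edge. Its summed level fell from 1246 to 50.7 CPM. A second zinc finger cluster of 15 genes at chr13:65336222-66854871 fell from 129.9 to 1.93 CPM, and since such genes are near copies of each other, the values of single members are uncertain. Over all 380 tested genes named Zfp, by contrast, 182 rose and 163 fell.

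Gene length differed between the groups of changed genes. Among protein-coding genes the median span from start to end was 44.7 kb for the 2130 genes at least 4-fold higher, 17.9 kb for the 1254 at least 4-fold lower and 24.7 kb for the 4545 that changed by less than 0.5 on the log2 scale. Genes over 100 kb made up 33.5% of the first group, 9.09% of the second and 11.3% of the third. Exon length per gene, which sets how many fragments a transcript yields, had medians of 5.13, 3.22 and 4.74 kb. These are descriptions of the groups with no test.

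Host transcripts of microRNAs also changed. PolyA libraries do not measure mature microRNAs, so the counts below are of precursor loci and host genes only. The miR-290 cluster on chromosome 7, the main microRNA locus of mouse embryonic stem cells, is transcribed as 1 precursor, and reads on its rows fell: Mir295 counted 8.6 to 10.4 CPM on day 0 (median 9.62) and 0.178 to 0.517 CPM on day 7 (median 0.276), and Mir294, Mir293, Mir291b and Mir292 fell by 5.03, 5.02, 5.00 and 3.43 on the log2 scale. In RefSeq (GRCm38.p6) the first 3 of the mature products below share the seed AAGUGCU (bases 2 to 8, in capitals), and they are shown because the cluster is known to act through that shared seed on regulators of the cell cycle:
mmu-miR-291a-3p: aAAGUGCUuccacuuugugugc
mmu-miR-294-3p: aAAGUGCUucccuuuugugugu
mmu-miR-295-3p: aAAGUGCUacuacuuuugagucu
mmu-miR-291b-3p: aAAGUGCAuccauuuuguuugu
mmu-miR-290a-3p: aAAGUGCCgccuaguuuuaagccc
The last pair, miR-291b-3p and miR-290a-3p, have the seeds AAGUGCA and AAGUGCC. Not every product of the fallen rows has such a seed: miR-293-3p, not shown, has GUGCCGC. No change is given here for the rows of Mir291a and Mir290a.

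The hosts of neural microRNAs rose. Mir124-2hg, host of a gene of the neuronal miR-124, counted 0 to 0.367 CPM on day 0 (median 0.0464) and 199 to 265 CPM on day 7 (median 235) (log2 fold change 11.47 ± 0.28, edgeR adjusted p = 7.62e-20). Mir9-3hg, host of a gene of miR-9, a regulator of neural progenitors, rose from 1.18 ± 0.161 to 10.4 ± 2.78 CPM and stood at 49.5 ± 2.88 on day 13. Mir99ahg rose from 0.00945 ± 0.025 to 9.25 ± 1.37 CPM, and its span at chr16:77236317-77691403 holds 3 microRNAs with 3 different seeds, including a member of the let-7 family, whose maturation Lin28a restrains. Their mature sequences, with the seed in capitals, show what the risen hosts carry:
mmu-miR-9-5p: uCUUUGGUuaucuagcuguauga
mmu-miR-99a-5p: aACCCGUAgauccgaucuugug
mmu-let-7c-5p: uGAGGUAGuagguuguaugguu
mmu-miR-125b-5p: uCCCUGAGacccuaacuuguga
Other long noncoding RNAs moved as far. Miat counted 4.48 to 6.42 CPM on day 0 (median 5.07) and 739 to 904 CPM on day 7 (median 804). Pantr1, next to Pou3f3, went from 0.0497 ± 0.0563 to 86.2 ± 8.04 CPM, and Platr10 and Lncenc1, known from stem cells, fell from 148 ± 8 to 0.77 ± 0.267 and 370.5 ± 13.3 to 6.45 ± 1.74.

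Levels on day 13 are given for genes described above. That comparison shares the day 7 libraries with the first, so each gene's levels are given side by side and no relation between the 2 changes is drawn; 83% of genes tested were called between day 7 and day 13. The proneural gene Neurod4 stood at 12.6 ± 3.31 CPM on day 13 after 76.3 ± 10 on day 7 (log2 change -2.59), and Dbx1 at 12 ± 3.65 after 101 ± 13.4 (-3.06). Crabp2 was at 18.5 ± 5.21 (-4.39), Col4a1 at 1207 ± 108 (-1.98). Tpbpa was at 46.6 ± 30.3 (1.68). By contrast with the first 4, Map2 stood at 1435 ± 130.2 after 239.8 ± 41.3, Hoxb3 at 226 ± 49.7 after 69.7 ± 8.31 and Fabp7, of radial glia, at 447 ± 93.1 after 39.2 ± 6.45. Pluripotency genes did not all remain at their day 7 level: Esrrb was at 53.8 ± 5.93 on day 13 after 8.93 ± 2.06, whereas Klf2 was at 2.53 ± 1.56 after 2.84 ± 1.18.

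**Figure D5:**
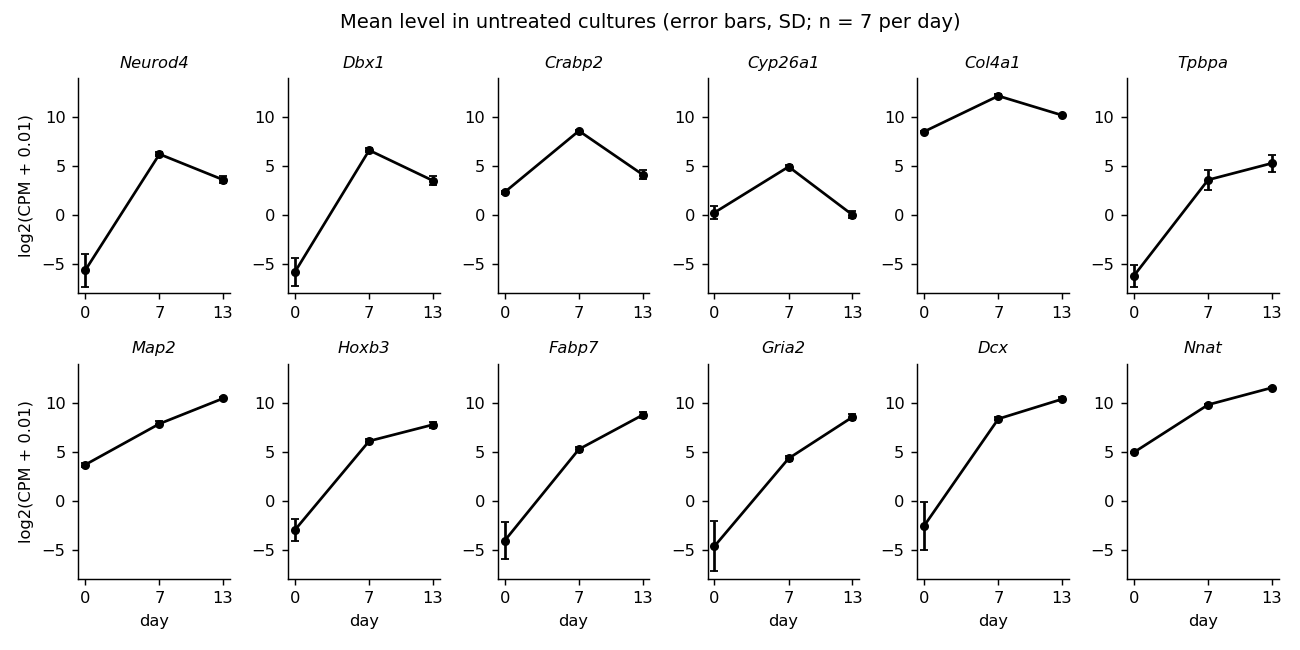
Mean level (log2 of CPM plus 0.01, error bars the SD over 7 libraries) of 12 genes on days 0, 7 and 13. Neurod4, Dbx1, Crabp2, Cyp26a1 and Col4a1 had lower means on day 13 than on day 7, and Tpbpa and the genes of the lower row (Map2, Hoxb3, Fabp7, Gria2, Dcx, Nnat) had higher ones.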

How the data were processed

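PolyA RNA was sequenced from strand-specific libraries, per the labels' protocols. The table deposited by the authors holds unnormalized counts for each gene and library. Per the submitters' processing notes, the tools were featureCounts 1.6.1, STAR 2.6.0b, FastQC 0.11.5 and bcl2fastq 2.19.0.316, and the build was GRCm38.p6. Neither the annotation release nor the strand setting of the counting is stated in the labels, so reads of overlapping or antisense genes cannot be told apart. Of 52550 rows, 27 had a symbol turned into a date, restored by gene identifier where it matched, and 52403 matched GENCODE vM21, which gave coordinates, biotypes and exon lengths. File starts count from 0 and are given here from 1.

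The 21 control libraries were fitted in edgeR 4.0.16 (R 4.3.3) with its robust quasi-likelihood model after TMM scaling and filterByExpr, with Benjamini-Hochberg adjustment over 16969 genes, and called at an adjusted p under 0.05. The filter leaves genes that are high in 1 group only, which had to differ. CPM values used TMM factors, and log2 CPM a prior count of 2. Library measures were compared with two-sided exact permutation tests. Among the 33 gene lists, 670 of 716 genes passed the count filter. The members and lists were chosen with earlier results of these data known, and lists are described by counts and medians with no test. Named genes were the 15 highest and 15 lowest log2 fold changes (called, proper symbol, at least 5 CPM in the higher group, libraries not overlapping), the 8 largest gains and losses in CPM, the 8 changed genes with the largest SD on day 7, and members of the lists; a few were named after their values were seen, and some genes that met the rule are not reported here. A gene with no count in a group was given a bound against 3 counts over that group, and intervals cover counting error only. Alternatives were other scalings (DESeq2 1.42.0 size factors, upper quartile, total counts), filters, tests (DESeq2, limma-voom in limma 3.58.1), sets of libraries, a block for the replicate number, and omission of each library in turn.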

Additional observations from a re-analysis of the deposited data

Results flagged for a closer look

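In groups of 7 libraries, 1 library stood apart from the other 6 in 19 of 339 sets of values examined (5.6%), by the gap to its nearest neighbour relative to the range. Chance marks about 1 in 20 such sets. Day 7 replicate 7 accounted for 6 of them. It had the fewest genes detected at the common depth (21378), and it was lowest for Fgf4 (1.06 CPM), Pecam1 (2.44 CPM), Phlda2 (3.26 CPM) and Tfcp2l1 (9.14 CPM) and highest for Cyp26a1 (37.3 CPM). Without it, 15087 genes were called. Day 7 replicate 5 was highest for Foxa2 (54.2 CPM) and lowest for Gbx2 (8.2 CPM), Hoxc5 (6.39 CPM) and Cdh11 (77.3 CPM). Other day 7 libraries apart were replicate 4, lowest for Camk2b (2.96 CPM), and replicate 6, highest for Ccne1 (53 CPM).

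On day 0, replicate 1 was lowest for Hand1 (4.75 CPM), Ngfr (32.4 CPM) and Socs3 (217 CPM), replicate 7 for Apob (3.01 CPM) and Spata31d1b (5.73 CPM) and replicate 6 for Rhox9 (3.75 CPM), and replicate 4 was highest for Lamb1 (404 CPM). None of these libraries decided whether its gene was called, as far as leaving out that library shows.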

How the results depend on the processing

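The number of genes called ran from 14003 to 18316 over 10 other scalings, filters, tests and sets of libraries, and from 14998 to 15170 when each of the 14 libraries was left out in turn. Genes at least 4-fold higher ran from 2629 to 2674 and genes at least 4-fold lower from 1498 to 1571 over the libraries left out. With no filter on low counts, 2995 genes were at least 4-fold lower, against 1499 with the filter, and 33471 genes were then tested. The fit with the replicate number as a block called 14860 genes, of which 2615 were at least 4-fold higher and 1502 lower. The 6 shared numbers did not pair the samples (correlations of deviations -0.0917 to 0.0474), and 1 of the day 0 libraries correlated best with its own number. Of 40 lists and families, 24 had a median above 0 in the reported fit, and also 24 under every alternative and every library left out. Their sizes were less stable: of 960 recomputed medians 65 moved by more than the spread between libraries, 29 of them under total-count scaling and 11 without the filter, where that of the Hox list was 2.23. Under total-count scaling the medians of DNA methylation (-0.0071), Polycomb (-0.19), glycolysis (-0.25) and BAF complex (0.63) genes moved by over 1.5 times. So did those of complex I (-0.27), proteasome (-0.51), ribosomal protein (-0.49) and ATP synthase (-0.52) genes. At a minimum of 1 CPM those of trophoblast (0.86), BMP and TGF-beta (0.36) and long noncoding RNA (0.56) genes did, as did forebrain (0.53, all 49 libraries) and glia (0.57, limma-voom). Of 202 called genes named in the text, 200 to 202 were called in the same direction without 1 library, and 197 under total-count scaling, where Hes1, Dnmt1, Cubn, Pcdh1 and Stmn2 lost their call. Under that scaling Hes1 (0.0499) and Dnmt1 (0.0052) changed sign, as did E2f1 (0.24) and Aurkb (0.17), which were not called in the reported fit. Ngfr was called higher under total-count scaling (0.27) and Apob lower with limma-voom (-0.58). Among genes not called in the reported fit, Rara was called without day 0 replicate 6 or day 7 replicate 1 or 5, Ezh2 without day 7 replicate 5 or 6, Apob without day 7 replicate 5, and Apom without day 0 replicate 6 or day 7 replicate 5 or 8. Precision is limited for genes near 0 on day 0.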

Other observations

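In gene families of axon guidance and membrane excitability more genes rose than fell, read here by symbol over all genes tested. Of 20 semaphorins, ligands of growing axons, 14 rose and 5 fell, and of 11 plexins, their receptors, 8 rose and 2 fell. Of 14 Eph receptors 11 rose and 3 fell, and of 8 ephrins 7 rose and 1 fell. Calcium channel genes rose in 17 of 23 cases and fell in 4, and potassium channel genes rose in 41 of 72 and fell in 20. The medians of these channel families were 1.95 and 1.37 on the log2 scale. Solute carriers were divided, 129 higher and 126 lower of 289. These shares stand beside 45.3% of all genes higher and 43.4% lower.

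Epithelial and mesenchymal genes changed side by side. Zeb2, a repressor of epithelial genes, rose from 2.48 ± 0.378 to 121 ± 9.58 CPM and Cdh11, a cadherin of mesenchyme, from 0.167 ± 0.0522 to 94.3 ± 8.32. Grhl3, an activator of epithelial genes, fell from 31.3 ± 1.08 to 4.61 ± 0.881 and Epcam from 179.5 ± 6.1 to 63.2 ± 9.51. Cldn6, a tight junction gene of early embryos, rose instead, from 64 ± 1.89 to 165 ± 27.8. Among noncoding classes, the median log2 fold change was 1.11 over 335 antisense RNAs and 0.71 over 499 lincRNAs, against 0.01 over 14670 protein-coding genes and -0.97 over 49 snoRNA genes.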
